A study of Mus musculus with 2 samples.

Results

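The genes described here encode the nuclear part of the oxidative phosphorylation machinery, the chain of protein complexes in the inner mitochondrial membrane that moves electrons to oxygen and makes ATP. They were taken by symbol, as every gene starting with Nduf, Uqcr, Sdh, Atp5 or Cox4 to Cox8 that had at least 100 UMIs (counted RNA molecules) over both libraries. Of 31053 genes, 97 matched the symbols and 93 passed the minimum. The 4 left out were Cox7b2, Cox8c and a second Atp5o record with no UMI, and Cox8b with 7 UMIs.

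The cells were CD45+ leukocytes sorted from tumours of C57BL/6 mice and read from the 5′ end of their transcripts in droplets. One library was labelled WT and the other Ythdf2 cKO, a conditional knockout of Ythdf2, a protein that binds m6A-marked RNA and promotes its decay. The labels do not name the Cre driver, the tumour model, the mice's age or how many mice each library pooled. The series asks about Ythdf2 in tumour macrophages and tumour immunity.

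Because each label has a single library, nothing was tested, and the differences below describe these 2 libraries. Intervals are exact, at 95%, and cover counting error only. Values are given with the library labelled WT first and the library labelled cKO second. CPM is a gene's UMIs divided by all UMIs of its class, on the usual depth-scaled axis where all genes add up to 1000000. A ratio is the library labelled cKO over the library labelled WT, and a log2 ratio has 1 CPM added to both sides.

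Ythdf2 RNA went against its label in myeloid cells. Macrophage-gated cells held 76.3 and 448 CPM of Ythdf2, and monocyte-gated cells held 50.1 and 412 CPM. Type 2 conventional dendritic cell-gated cells held 59.6 and 206 CPM. The values were closer in plasmacytoid dendritic cell-gated cells, at 62.7 and 76.1 CPM, and in CD8 T-gated cells, at 54.9 and 66.7 CPM. Reads from the 5′ end can lie outside a deleted stretch, so these values do not check the deletion, and every direction below rests on the labels alone. Why the RNA was higher under the label cKO was not tested.

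Complex I (Nduf genes) takes electrons from NADH, and complex II (Sdh genes) takes them from succinate as an enzyme of the TCA cycle. Complex III (Uqcr genes) passes them to cytochrome c and complex IV (Cox genes) hands them to oxygen, while complexes I, III and IV pump the protons that drive ATP synthase, complex V (Atp5 genes). Complexes I, III, IV and V also contain subunits encoded in mitochondrial DNA, so a working complex needs RNA from 2 genomes. In macrophages, use of this pathway is commonly contrasted with use of glycolysis.

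Complex I contributed 36 subunit genes and 8 assembly factors, complex II 4 and 4, complex III 8, complex IV 17 and complex V 16. Complexes V, IV and I held 30.1%, 28.9% and 27.5% of the members' UMIs, complex III held 10.0% and complex II 1.96%. The genes lay on 19 chromosomes, with 3 on X. They were short: their longest coding sequence had a median of 432 bases, against 1359 bases over 12742 genes with at least 100 UMIs.

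The choice by symbol did not use the sequence around the start sites, where some motifs were more common in the members than in all genes. RefSeq windows of 300 bases around the start (250 before and 50 after, build GRCm38.p6) were at hand for 76 of the 93 members, in 81 windows. The letters GCGCA, any base, GCGC, the motif of the respiratory regulator NRF1, stood on either strand in 22 windows (27.2%), against 4.60% of 32851 windows of all genes. CCGGAAG, the core bound by ETS factors such as GABPA, stood in 25.9% against 8.86%, and AAGATGGCG, bound by YY1, in 9.88% against 1.40%. NRF1 or ETS letters stood in 38 of the 81 windows (46.9%) against 12.6%, so most member windows held neither. TATAAA was less common in the members, at 8.64% against 13.6%. Median GC content was 58.7% in the members and 52.7% over all windows, and its part in these shares was not tested. The windows of all genes had no UMI minimum, unlike the members, and the part of that was not tested either. The ETS letters end as the YY1 letters begin, with AAG, so a joined stretch can match both. A match is a description of the letters and not of binding.

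The 3 genes for subunit c of ATP synthase are shown because they encode the same mature protein, the subunit of the proton-driven rotor, from separate loci, and because their RNAs differed between cell classes. The 250 bases before each start are given 5′ to 3′ on the gene's strand, with a match to NRF1 in capitals. They lie at chr11:96075632-96075881 (Atp5g1), chr15:102671048-102671297 (Atp5g2) and chr2:73911327-73911576 (Atp5g3), all on the minus strand and upstream of the RefSeq transcript. In the GENCODE annotation Atp5g2 extends to 102672352 and Atp5g1 to 96075670. By those bounds the Atp5g2 stretch lies inside the gene and the Atp5g1 stretch partly inside.
Atp5g1: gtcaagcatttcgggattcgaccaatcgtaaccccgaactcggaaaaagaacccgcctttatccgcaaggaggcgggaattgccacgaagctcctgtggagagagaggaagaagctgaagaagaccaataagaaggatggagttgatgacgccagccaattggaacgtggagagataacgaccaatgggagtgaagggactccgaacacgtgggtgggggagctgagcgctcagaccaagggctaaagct
Atp5g2: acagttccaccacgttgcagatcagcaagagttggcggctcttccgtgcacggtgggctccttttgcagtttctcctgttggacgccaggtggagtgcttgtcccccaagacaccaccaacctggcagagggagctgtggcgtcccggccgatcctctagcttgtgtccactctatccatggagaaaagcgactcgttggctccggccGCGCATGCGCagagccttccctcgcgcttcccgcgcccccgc
Atp5g3: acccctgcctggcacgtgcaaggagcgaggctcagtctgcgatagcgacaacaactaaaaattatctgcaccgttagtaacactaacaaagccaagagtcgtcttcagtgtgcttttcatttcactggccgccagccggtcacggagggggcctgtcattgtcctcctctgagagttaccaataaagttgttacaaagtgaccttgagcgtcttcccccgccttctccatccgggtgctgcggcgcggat
Atp5g2 carried the NRF1 letters in this stretch. Atp5g3 carried them in its 300-base window but not within these 250 bases, and Atp5g1 held none of the 4 motifs in its window.

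Filters on genes, mitochondrial RNA and doublets left 10992 and 9086 cells, whose median depths were 5128 and 7998 UMIs. The libraries shared 43 barcodes, 24 of them in cells kept in both. Cells were placed in classes by marker genes, which excluded every member, and 46.4% and 67.1% of the cells met exactly 1 gate. Comparisons were limited to the 10 classes that had 50 or more cells on both sides. The members held 2.14% and 1.74% of all UMIs in the 2 libraries.

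Macrophage-gated cells devoted 2.21% and 1.77% of their UMIs to the 93 genes, from 1098 and 431 cells. Type 2 conventional dendritic cell (cDC2)-gated cells held 2.08% and 1.92%, plasmacytoid dendritic cell (pDC)-gated cells 1.97% and 2.01%, and monocyte-gated cells 1.84% and 1.61%. Thus the myeloid classes of the library labelled WT ranged from 1.84% to 2.21%. Among lymphoid classes, regulatory T-gated cells held 2.26% and 1.86%, NK-gated cells 1.76% and 1.69%, CD8 T-gated cells 1.74% and 1.88%, gamma delta T-gated cells 1.73% and 1.66%, and CD4 T-gated cells 1.65% and 1.60%. B-gated cells were lowest among the compared classes, at 1.60% and 1.15%.

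The order of classes was less clear cell by cell than in the sums. The lower and upper quartiles of macrophage-gated cells were 1.77% and 2.38% under the label WT, and 1.39% and 1.90% under the label cKO. For NK-gated cells they were 1.47% and 1.93%, and 1.43% and 1.85%. In B-gated cells of the library labelled WT the pooled 1.60% lay above the upper quartile of 1.44%, so a few cells carried much of it. The same was true of regulatory T-gated cells there, at 2.26% against an upper quartile of 2.16%.

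**Figure D1:**
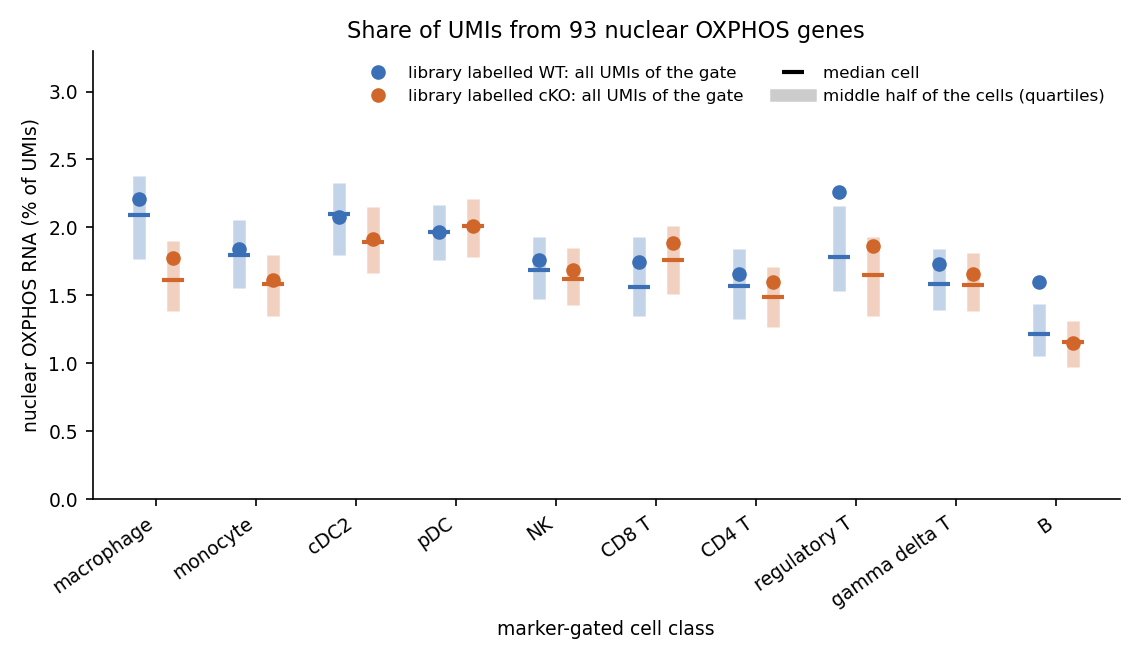
Share of UMIs from the 93 nuclear oxidative phosphorylation (OXPHOS) genes, in percent, for 10 marker-gated classes (x axis) in the libraries labelled WT (blue) and cKO (orange). Points are pooled shares, short lines the median cell and pale bars the interquartile range of the cells. The macrophage pair (2.21% and 1.77%) and the B pair (1.60% and 1.15%) are the furthest apart, and in CD8 T-gated cells the point labelled cKO is the higher one, an order that turned when ribosomal and mitochondrial RNA was left out of the total.

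Most members were expressed throughout. Of the 93, 72 had at least 50 CPM in every compared class as a mean of the 2 libraries, and their highest class exceeded their lowest by a median of 1.78-fold. The most even was Ndufb5, a complex I accessory subunit, at 1.21-fold, and the least even Ndufa6, another one, at 2.73-fold. Wider ranges lay among the less abundant members. Sdhaf1, a complex II assembly factor, had 19.1 CPM in macrophage-gated and 116 CPM in regulatory T-gated cells, a 6.07-fold range, and the isoforms Cox6a2, Cox6b2 and Cox7a1 were each near 0 in some classes.

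Cox6a2 marked pDC-gated cells. Subunit 6a of complex IV has a widespread form, Cox6a1, and a form best known from heart and skeletal muscle, Cox6a2. pDC-gated cells held 1026 and 895 CPM of Cox6a2, and 88.5% and 88.0% of the cells had a UMI of it. Macrophage-gated cells, which were sequenced more deeply (median 11184 and 14600 UMIs against 6255 and 10165), had a UMI in 4.19% and 3.25% of cells, and monocyte-gated cells in 0.61% and 0.35%. In every other class Cox6a2 was at or below 5.26 CPM, except for 41.9 CPM in B-gated cells of the library labelled WT, where it came from 2 of 277 cells.

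Both forms were present in pDC-gated cells. Cox6a1 stood at 210 and 231 CPM in pDC-gated cells, within its range of 128 to 284 CPM over the compared classes. Clustering that left the members out of the variable genes gave the same picture: 1 cluster, most of whose gated cells were pDC-gated, held 84.3% and 83.5% of all Cox6a2 UMIs of the kept cells. The gate itself was matched by Tcf4, the transcription factor that defines this lineage, at 2317 and 2355 CPM. UMIs from the 5′ end count molecules, so no division by gene length was made, and shares within a gene set are best compared between classes and not between genes.

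Subunit c of ATP synthase was divided differently in myeloid and lymphoid classes. Atp5g1 held 38.7% and 38.5% of the subunit c UMIs in macrophage-gated cells and 42.7% and 36.7% in cDC2-gated cells. In NK-gated cells it held 22.4% and 23.0%, and Atp5g2 held 53.5% and 51.5%. B-gated cells gave Atp5g2 52.1% and 58.2%. pDC-gated cells resembled the lymphoid classes, with 56.5% and 47.7% for Atp5g2. In both libraries Atp5g2 thus held at most 43.6% in macrophage-, monocyte- and cDC2-gated cells and at least 46.5% in each other compared class. The order of Atp5g1 and Atp5g2 was less divided: in the library labelled cKO, Atp5g2 also held more than Atp5g1 in monocyte-gated (41.5% and 33.5%) and cDC2-gated cells (43.6% and 36.7%).

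**Figure D2:**
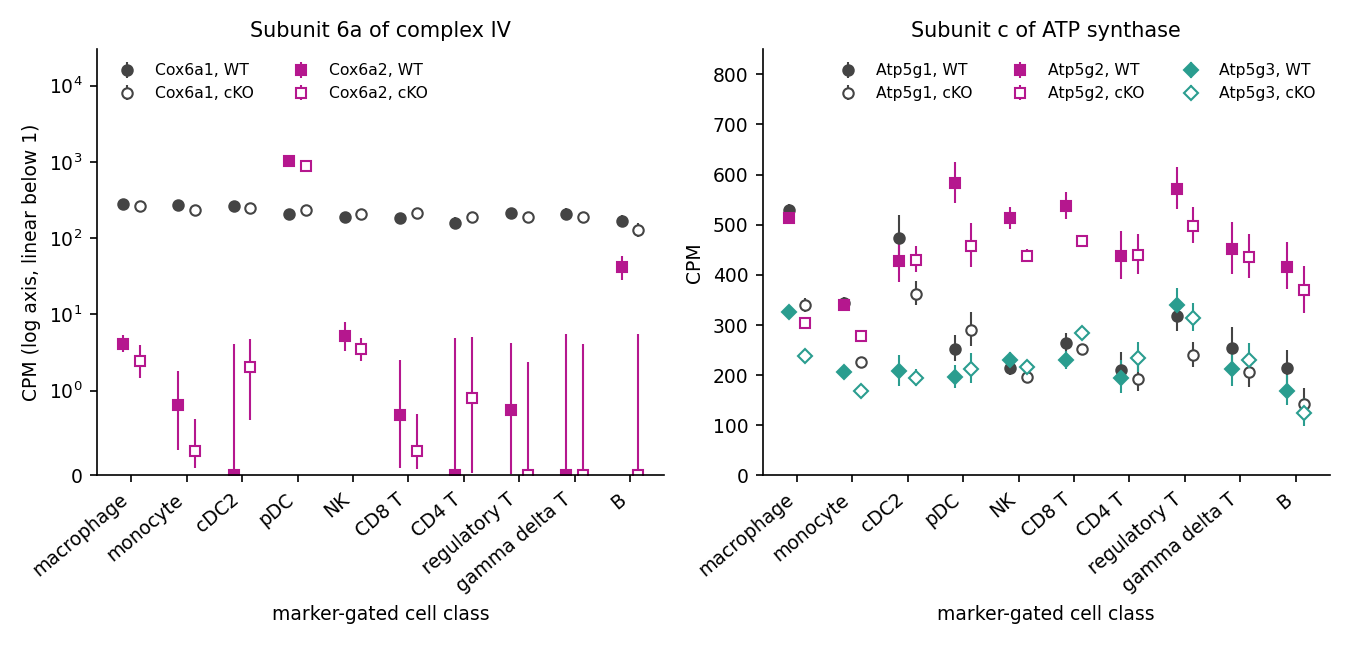
CPM of Cox6a1 and Cox6a2 (left, log axis, linear below 1) and of the 3 subunit c genes (right) in 10 marker-gated classes. Filled symbols are the library labelled WT and open symbols the library labelled cKO; bars are exact 95% Poisson intervals. Cox6a2 stands near 1000 CPM in pDC-gated cells and at most 41.9 CPM in the other classes, and Atp5g2 lies above Atp5g1 in the lymphoid and pDC-gated classes and, in the library labelled cKO, in monocyte- and cDC2-gated cells too.

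Other minor isoforms were low. Cox6b2, a form of subunit 6b best known from testis, stood at 21.0 and 21.1 CPM in cDC2-gated cells, with a UMI in 16.8% and 25.5% of them, and at 7.29 and 8.22 CPM in monocyte-gated cells. Its level in cDC2-gated cells did not differ beyond counting error (ratio 1.01, 0.585 to 1.80). Cox7a1, another muscle form, was highest in macrophage-gated cells, at 16.1 and 8.95 CPM. Cox4i2, the form of subunit 4 linked to low oxygen, stood at 7.48 and 11.1 CPM there. Cox4i1, the widespread partner of Cox4i2, stood at 1014 and 805 CPM there. Outside Cox6a2, Cox7a1 and Cox6b2, the member most particular to a class exceeded the next class by at most 1.36-fold (Sdhaf3 in B-gated cells), as means of the libraries. Ndufb7 in regulatory T-gated cells stood 1.32-fold and Cox8a in NK-gated cells 1.11-fold above the next class.

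The largest difference between the libraries among the 4 classes examined in detail lay in macrophage-gated cells. There 86 members reached 10 CPM in either library and 30 UMIs in all. Of these, 54 were at least 1.2-fold lower in the library labelled cKO, against 37.8% of all 7865 genes tested in these cells. At the same size 2 were higher, against 22.6%. At 1.5-fold, 12 were lower, against 17.4%, and 0 higher, against 11.6%. The difference was therefore broad and small, and the share of members past 1.5-fold was not above that of all genes. The median log2 ratio of the members was -0.34, with a median member interval of -0.46 to -0.24, and the median of all genes was -0.12. Relative to all genes the members were lower by a log2 difference of -0.21. Scaling by median-of-ratios sets the all-gene median to about 0, so its -0.21 is the same difference by construction and not a second result.

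Complex I, the entry point for NADH, was among the lowest. Its subunits summed to 6309 and 4850 CPM, a ratio of 0.769 (0.759 to 0.778), and 25 of 36 subunits were at least 1.2-fold lower with 0 higher. The catalytic core and the accessory subunits had summed log2 ratios of -0.38 each. Ndufs7, a core subunit that holds an iron-sulphur cluster, had 146 and 83.8 CPM (ratio 0.575, 0.524 to 0.629). Ndufa12, at 197 and 118 CPM, Ndufa5, at 142 and 85.5 CPM, and Ndufab1, the mitochondrial acyl carrier protein, at 212 and 128.7 CPM, followed with ratios of 0.601 to 0.608. These were the 4 lowest complex I subunits of at least 50 CPM. At the other end Ndufa1, which the X chromosome encodes, had 139 and 155 CPM (1.11, 1.03 to 1.199). Ndufs4 (128 and 135 CPM) and Ndufa6 (133 and 137 CPM) did not differ beyond counting error.

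The 8 complex I assembly factors, helpers that are not part of the finished enzyme, had a summed ratio of 0.758 (0.708 to 0.812). Ndufaf2, at 24.4 and 9.496 CPM, had the lowest ratio of all members passing the minimum (0.389, 0.296 to 0.505). It was singled out after its value was seen. In monocyte-gated cells it had 12.7 and 6.79 CPM (0.536, 0.405 to 0.712). Without cells holding a melanocytic UMI, its ratio was 0.446 in macrophage-gated and 0.598 in monocyte-gated cells.

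Complex II differed least among the complexes in macrophage-gated cells by its sum, at a ratio of 0.852 (0.816 to 0.890), an interval that holds those of complexes III and IV. Its subunits split: Sdha, the flavoprotein that oxidises succinate, had 93.5 and 64.8 CPM, and Sdhc, a membrane anchor, 124 and 95.4 CPM. Sdhb, the iron-sulphur subunit (158 and 152 CPM), and Sdhd, the other anchor (90.4 and 85.5 CPM), did not differ beyond counting error. In monocyte-gated cells Sdha stood at 55.6 and 57.8 CPM, and 0 of the 4 subunits passed 1.2-fold in either direction.

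Complex III had a summed ratio of 0.839 (0.821 to 0.856), and 6 of 8 subunits were at least 1.2-fold lower. The exception was Uqcrfs1, the Rieske iron-sulphur protein that takes electrons from ubiquinol. It had 116 and 160 CPM in macrophage-gated cells, a ratio of 1.37 (1.27 to 1.48), and 160 and 182 CPM (1.14, 1.06 to 1.22) in monocyte-gated cells. Over the 10 compared classes it was higher in the library labelled cKO in 7, with the interval above 1 in 4, and lower in 3, with the interval below 1 in 1. Without cells holding a melanocytic UMI these counts were 8 and 4, and 2 and 0. Uqcrh, the hinge subunit, stood at 390 and 397 CPM. Together with Ndufs4 these were the 3 members with a ratio above 1 in both myeloid classes, out of 83 that passed the minimum in both, while 70 were below 1 in both.

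Complex IV had a summed ratio of 0.840 (0.830 to 0.850), and 6 of its 14 members that passed the minimum were at least 1.2-fold lower. Its abundant subunits were not alike. Cox8a had 842 and 785 CPM (0.933, 0.904 to 0.963), while Cox4i1 had 1014 and 805 CPM (0.794, 0.770 to 0.818). Cox7a2 had 456 and 312 CPM (0.685, 0.653 to 0.718). Ndufa4, now counted as a complex IV subunit despite its name, had 399 and 275 CPM (0.690, 0.655 to 0.726).

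ATP synthase had a summed ratio of 0.785 (0.776 to 0.795), and 11 of 15 members were at least 1.2-fold lower. The rotor ring genes were among the lowest. Subunit c RNA summed over the 3 genes was 1369 and 881 CPM in macrophage-gated cells, and 889 and 672 CPM in monocyte-gated cells. Atp5g2 had 514 and 304 CPM (0.591, 0.564 to 0.620), Atp5g1 529 and 339 CPM (0.641, 0.612 to 0.671) and Atp5g3 326 and 238 CPM (0.730, 0.691 to 0.772) in macrophage-gated cells. The catalytic head subunit Atp5b was nearer the median, at 661 and 508 CPM.

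**Figure D3:**
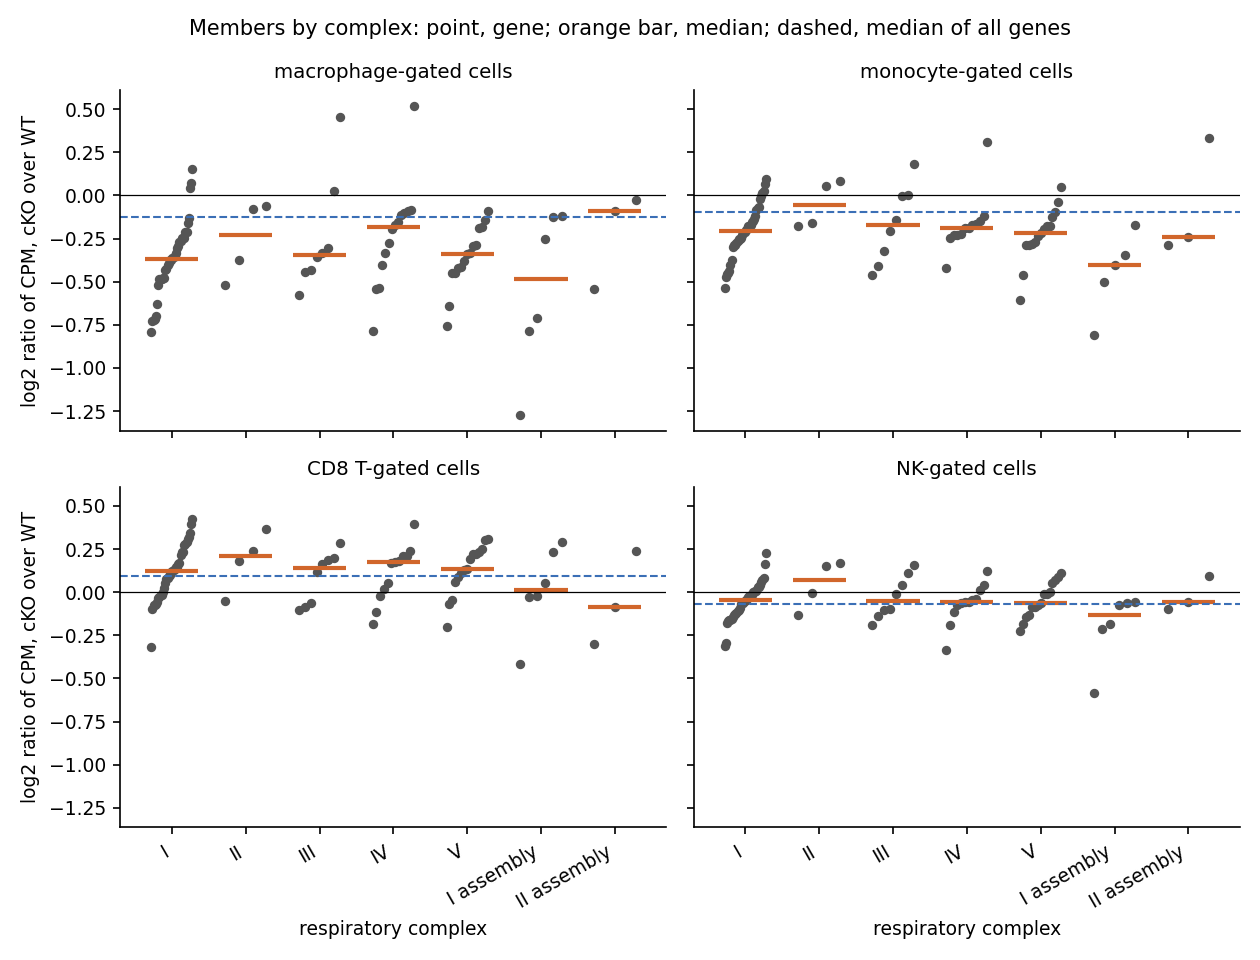
Log2 ratio of CPM, library labelled cKO over library labelled WT, of each member that passed the minimum (points), by respiratory complex, in 4 marker-gated classes. Orange bars are medians per complex, and the dashed line is the median of all genes tested in the class. In macrophage-gated cells the medians of complexes I, II, III, IV and V lie below the dashed line (-0.37, -0.23, -0.35, -0.18 and -0.34 against -0.12). Among complexes I to V in NK- and CD8 T-gated cells, the complex II medians (0.07 and 0.21) lie furthest from their lines (-0.07 and 0.10). The median of the complex II assembly factors in CD8 T-gated cells (-0.09) lies further still.

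The 2 libraries did not hold the same macrophage-gated cells. Cells with at least 2 of 6 cell cycle genes made up 34.2% and 8.58% of them. Clusters named for macrophages held 64.5% and 14.8% of the gated cells, and under the label cKO 245 of 431 cells lay in monocyte clusters. C1qa stood at 2667 and 1230 CPM, the scavenger receptor gene Mrc1 at 555.4 and 120.6 CPM, and the monocyte gene Ly6c2 at 357 and 1448 CPM. How far this makeup accounts for the ratios was not tested beyond the subsets that follow.

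The median was nearer 0 in 3 of 4 subsets and about the same in the last. In cells without a UMI of the 6 cell cycle genes (481 and 300), the shares were 2.01% and 1.77%, the median log2 ratio was -0.20 (all genes -0.07) and 31 of 85 members were at least 1.2-fold lower, against 30.8% of all genes. In cells with at least 2 of these genes (375 and 37), the shares were 2.40% and 2.04%, with a median of -0.24 (all genes -0.06) and 39 of 86 members lower, against 30.9%. Within macrophage clusters (708 and 64 cells) the shares were 2.20% and 1.98%, the median was -0.15 with a median member interval of -0.40 to 0.06 (all genes -0.01), and 20 of 86 members were at least 1.2-fold lower, a share near the 22.7% of all genes. In macrophage-gated cells of all other clusters (390 and 367) the shares were 2.22% and 1.73%, with a median of -0.35 (all genes -0.08) and 64 of 86 members lower, against 32.6%. The median was below that of all genes in each subset, and the count exceeded the background most in the cells outside macrophage clusters. Those cells also differed in makeup. Under the label WT 256 of the 390 lay in unnamed clusters, and under the label cKO 245 of the 367 lay in monocyte clusters. A monocyte cluster with shares of 1.60% and 1.46% held 46 and 154 macrophage-gated cells. The part of this makeup in the last subset was not tested.

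Monocyte-gated cells gave a smaller difference. Their median log2 ratio was -0.20 (median member interval -0.31 to -0.11) against -0.10 for all genes, from 983 and 1434 cells. Of 83 members 26 were at least 1.2-fold lower, against 24.1% of all genes in these cells, and 2 were higher, against 11%. Cells with at least 2 cell cycle genes were rare in both, at 3.76% and 2.44%, and the median was -0.19 without any cell cycle UMI and -0.18 within monocyte clusters. In the monocyte-gated cells of other clusters (366 and 239) it was -0.12 (median member interval -0.30 to 0.05) against -0.02 for all genes. The share of members at least 1.2-fold lower, 31.3%, lay near that of all genes, so the difference shows in the median more than in that count. Few higher members were also found in NK-gated cells (0 of 84, all genes 6.96%), where the members' median lay near that of all genes.

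The lowest members in monocyte-gated cells were Atp5g1 (343 and 225 CPM, ratio 0.657, 0.625 to 0.691), Ndufv3, a subunit of the NADH-binding arm (160 and 110 CPM), and Ndufc1 (157 and 113 CPM). Uqcr11 and Atp5k, small subunits of complexes III and V, had ratios of 0.724 and 0.726. Complex I summed to a ratio of 0.863 (0.852 to 0.873) with 11 of 36 subunits at least 1.2-fold lower, and complex V to 0.867 (0.857 to 0.877) with 6 of 15. Complex II was nearest 1, at 0.949 (0.906 to 0.995). Of the 83 members measured in both myeloid classes, 22 were at least 1.2-fold lower in both, against 15.6% of all genes.

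Cox7a2 and Cox7a2l differed in opposite directions in monocyte- and cDC2-gated cells. Cox7a2 encodes subunit 7a of complex IV, and Cox7a2l a related protein that joins complexes III and IV into supercomplexes. Cox7a2 was lower in the library labelled cKO in 10 of 10 compared classes, with the interval of the ratio below 1 in 7. In monocyte-gated cells it had 374 and 279 CPM (0.746, 0.712 to 0.782), whereas Cox7a2l had 229 and 283 CPM (1.24, 1.17 to 1.31). In cDC2-gated cells the 2 genes had ratios of 0.731 and 1.32. Cox7a2l was higher in 5 classes and lower in 5, with the interval above 1 in 3 and below 1 in 2.

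In a cluster of 188 cells led by pigment genes, Cox7a2 stood at 1089 CPM against 347 CPM in all other kept cells, and Cox7a2l at 309 against 290. In that cluster 78 of 90 members were at least 1.5-fold higher than in the other cells, against 36.5% of all genes, and 1 was lower, against 29%. Without cells holding a melanocytic UMI, Cox7a2 was lower in 9 of 10 classes, with the interval below 1 in 6. Its ratio was then 0.657 in macrophage-, 0.768 in monocyte- and 0.796 in NK-gated cells, and 1.01 in CD8 T-gated cells.

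In NK-gated cells the members were close to all genes. Their median log2 ratio was -0.06 against -0.07 for all genes, from 1079 and 1600 cells, and the summed ratio of 0.958 turned to just above 1 under median-of-ratios scaling. Of 84 members 4 were at least 1.2-fold lower, against 17.6% of all genes in these cells, and 0 were higher, against 6.96%. In NK-gated cells of 5000 to 15000 UMIs the difference was larger, with a summed log2 ratio of -0.17 against -0.06. Cox7a2 (441 and 349 CPM), Ndufv3 (152 and 122 CPM) and Ndufs7 (92.95 and 75.6 CPM) were the lowest of at least 50 CPM. Ndufa1 was the highest, at 141 and 166 CPM (1.17, 1.07 to 1.29), and Uqcrb, a complex III subunit, had 171 and 191 CPM.

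CD8 T-gated cells gave a median log2 ratio of 0.13 against 0.10 for all genes, from 525 and 1616 cells, and this direction turned (summed log2 ratio -0.06) when ribosomal protein and mitochondrially encoded genes were left out of the total, and in cells with at least 2 cell cycle genes (median -0.04, 46 and 232 cells) and in cells of 5000 to 15000 UMIs (summed log2 ratio -0.01). Of 84 members 14 were at least 1.2-fold higher, against 29.6% of all genes in these cells, and 3 were lower, against 15.1%. Ribosomal protein RNA made up 29.5% and 21.5% of UMIs in these cells, and cells with at least 2 cell cycle genes 8.76% and 14.4%. Ndufa1 (132 and 178 CPM), Cox5a (297 and 392 CPM) and Ndufa13 (303 and 398 CPM) were highest, and Ndufa6 was lowest, at 212 and 170 CPM (0.803, 0.734 to 0.879). Atp5g2 (538 and 468 CPM) and Cox7a2l (465 and 410 CPM) were also lower than counting error allows. Ndufa1 was thus among the 5 highest in macrophage-, NK- and CD8 T-gated cells.

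The median furthest from 0 among the compared classes came from B-gated cells, beside a difference in melanocytic RNA. There 61 of 81 members were at least 1.2-fold lower, against 31.8% of all genes, and 0 higher, against 19.8%, with a median of -0.45. The 4 melanocytic genes Pmel, Dct, Mlana and Tyrp1 summed to 1489 and 9.05 CPM in these cells. Leaving out cells with any melanocytic UMI kept 211 and 180 cells and brought the median to -0.06, and keeping B clusters, which removed 5 cells and 1 cell, brought it to -0.07. In regulatory T-gated cells 45 of 85 members were at least 1.2-fold lower, against 22.8%, and 0 higher, against 20.3%, with a median of -0.28 and 1280 and 8.92 CPM of melanocytic RNA. There the median was -0.10 without melanocytic UMIs and -0.06 within regulatory T clusters. In macrophage-gated cells that RNA was 390 and 269 CPM, and the OXPHOS shares of cells without it were 2.09% and 1.69%.

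**Figure D4:**
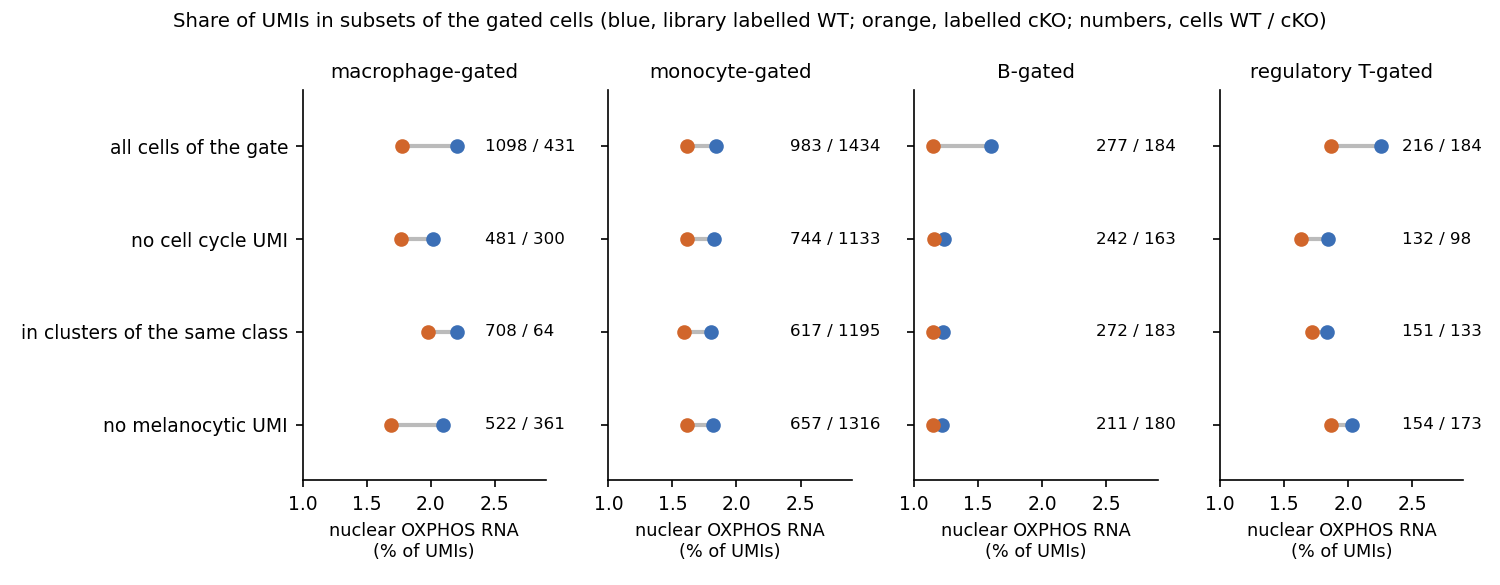
Share of UMIs from the 93 genes (x axis, percent) in the library labelled WT (blue) and the library labelled cKO (orange), for all cells of 4 gates and for 3 subsets of them (rows), with the number of cells in each library. In B-gated cells the points nearly meet in each subset (1.23% and 1.15% within B clusters), while in monocyte-gated cells they stay about as far apart as in all cells (1.80% and 1.59% within monocyte clusters).

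In the other 4 classes the members' shares lay near or below those of all genes. In cDC2-gated cells 24 of 84 members were at least 1.2-fold lower (25.1% of all genes) and 5 higher (22.6%), with a median of -0.12 (all genes -0.03). In pDC-gated cells 3 of 84 were lower (23.5%) and 15 higher (21.1%). Their median of 0.09 (median member interval -0.22 to 0.37) lay above the -0.01 of all genes. CD4 T-gated cells had 10 of 82 lower (23%) and 7 higher (22.3%), and gamma delta T-gated cells 17 of 82 lower (31.7%) and 7 higher (21%). Each had a median of -0.05, against -0.01 and -0.07 for all genes. No cluster was named for cDC2, so that gate was not checked by clusters.

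Other genes of mitochondrial energy metabolism, in lists chosen by function, were set beside all genes of the macrophage-gated cells, whose median was -0.12, with 37.8% at least 1.2-fold lower and 22.6% higher. The 13 subunits encoded in mitochondrial DNA had a median log2 ratio of -0.44, with 10 at least 1.2-fold lower, and the 77 mitochondrial ribosomal protein genes one of -0.42, with 55 lower. TCA cycle enzymes had -0.32, with 10 of 17 lower, and mitochondrial carriers and outer membrane genes -0.32, with 9 of 16. Electron carriers and feeders had -0.39, with 9 of 15 lower and 3 higher, assembly factors outside the symbol rule -0.20, with 12 of 27 lower and 3 higher, and regulators of mitochondrial biogenesis -0.20, with 3 of 10 lower and 1 higher. Cytosolic ribosomal proteins had -0.23, with 39 of 90 lower. The counts of the last 3 lists lay near or below those of all genes. Glycolysis genes stood apart, with a median of 0.14, 6 of 17 higher and 0 lower. Antioxidant and uncoupling genes had a median of -0.21 but a summed log2 ratio of 0.41, with 4 of 10 lower and 3 higher.

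In monocyte-gated cells the mitochondrial ribosomal proteins had a median of -0.26, with 37 of 74 lower (all genes -0.10 and 24.1%), TCA cycle enzymes -0.20 and glycolysis 0.07, while the mitochondrially encoded subunits had -0.13 with a summed log2 ratio of 0.04. In CD8 T-gated cells glycolysis genes had a median of 0.58, with 14 of 16 at least 1.2-fold higher (all genes 0.10 and 29.6%), against 0.13 for the members, and the mitochondrially encoded subunits -0.23. Nuclear and mitochondrially encoded subunits of the same complexes thus had medians of opposite sign in CD8 T-gated cells under this scaling, though the nuclear one turned negative in the settings named above. The CD8 T clusters were filled unevenly, as given above, and the part of that in these medians was not tested.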

How the data were processed

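The deposited counts are UMIs per gene and barcode, made by the authors with Cell Ranger 5.0.1 against mm10, per the submitters' processing notes, which also name Seurat 4.0.4. The file headers name cellranger 5.0.0. Counting options and the gene annotation's release are not stated there. The members, gene lists and comparisons were chosen with earlier results of these data known.

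Barcodes with under 200 genes or over 10% mitochondrial UMIs were left out (174 and 274 by the first limit, 2221 and 1528 by the second, some by both), which left 12179 and 9865. The highest Scrublet scores, 0.8% per 1000 cells, were removed as doublets (1187 and 779). Classes came from gates on marker UMIs that allowed at most 1 UMI of opposed lineages, and 14 were defined. Leiden clusters (scanpy 1.11.5, resolution 1.5, 30 components, 15 neighbours) left the members, mitochondrially encoded and ribosomal protein genes, antigen receptor segments and Ythdf2 out of the variable genes. A cluster took a class's name when that class held 60% of its gated cells and 10% of all its cells.

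Within each library, a class's UMIs were added up and scaled to CPM, so that all genes add up to 1000000. Poisson intervals were used for CPM, Clopper-Pearson intervals for shares and conditional binomial intervals for ratios. A median member interval is the median of the members' bounds. The calculation was run on simulated Poisson counts with known ratios. Those counts had no variation between cells or libraries, so the run checks the arithmetic and not the comparison of these libraries. Named genes were the 5 highest and 5 lowest ratios in macrophage-, monocyte-, CD8 T- and NK-gated cells that had 50 CPM or more on either side and 100 UMIs, isoform pairs, the Sdh subunits, the most abundant members and the member most particular to each class. Ndufaf2 and the Cox7a2 comparison across classes were chosen after values were seen. Alternatives changed the cell filters, gates, scaling, weighting, depth, pseudocount and low-value filter. Gates allowing 3 UMIs, clusters of the same class, cells without melanocytic UMIs and cells of 5000 to 15000 UMIs were added after seeing the data.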

Additional observations from a re-analysis of the deposited data

Results flagged for a closer look

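Under CPM scaling, the summed level of the 93 genes went in opposite directions in different classes. The log2 ratio, library labelled cKO over library labelled WT, was 0.11 in CD8 T-gated cells, against -0.32 in macrophage-, -0.19 in monocyte- and -0.0615 in NK-gated cells. The medians of all genes had the same signs, at 0.10, -0.12, -0.10 and -0.07 in that order. With median-of-ratios factors the sums were 0.0116, -0.19, -0.0927 and 0.0067. The difference between the classes was not tested, since each label has 1 library. The CD8 T value turned negative under 2 settings and the NK value turned positive under 1, as given below. Ribosomal protein RNA (29.5% and 21.5% of UMIs) and the filling of the CD8 T clusters differed beside the CD8 T value. Cycling cells (34.2% and 8.58%) differed beside the macrophage value. The part of these beyond the subsets given above was not tested.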

How the results depend on the processing

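No paired analysis was possible because each label has 1 library, and for the same reason no replicate could be left out. Medians over members kept their direction in macrophage- and monocyte-gated cells under all 17 alternatives, from -0.41 to -0.14 and from -0.23 to -0.11. Unless a construction shows the cause (fewer or other cells, another total), the cause of a change was not tested. Where no share of all genes is printed beside a count of lower members, none was recorded, so such a count is not set against all genes. The median of all genes moved as well. It went from -0.12 to 0.0016 in macrophage-gated cells with Leiden classes. In CD8 T-gated cells it went from 0.10 to -0.08 without ribosomal and mitochondrial genes. In NK-gated cells of 5000 to 15000 UMIs it went from -0.07 to -0.03.

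The macrophage-gated median became -0.20 without cell cycle UMIs, -0.14 in Leiden classes, -0.15 in clusters of the same class and -0.21 with median-of-ratios factors. Then 31 (all genes 30.8%), 14, 20 (all genes 22.7%) and 34 members were at least 1.2-fold lower, against 54 (all genes 37.8%). The summed log2 ratio there was -0.32, and became -0.19, -0.15, -0.15 and -0.19 under those 4, -0.38 at 5% mitochondrial UMIs, -0.34 in cells of 5000 to 15000 UMIs, -0.35 thinned, -0.34 with doublets kept, -0.33 with equal weight per cell, -0.34 with no opposed UMI and -0.37 without ribosomal and mitochondrial genes.

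The monocyte-gated median became -0.11 with median-of-ratios factors, with 15 members lower against 26. The summed ratio, -0.19, became -0.0927 there, -0.20 thinned or with equal weight, -0.18 without cell cycle UMIs and in clusters of the same class, -0.17 without melanocytic UMIs and -0.21 at 3 opposed UMIs.

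The CD8 T-gated sum, 0.11, reversed to -0.0626 without ribosomal and mitochondrial genes and to -0.00628 in cells of 5000 to 15000 UMIs. It was 0.0845 thinned, 0.0124 at 3 opposed UMIs, 0.0116 with median-of-ratios factors, and 0.0920 with no opposed UMI. Members lower, 3, became 10 without ribosomal genes, 13 in cells of 5000 to 15000 UMIs, 8 thinned or unfiltered, 6 at 3 opposed UMIs and 5 with median-of-ratios factors.

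The NK-gated sum, -0.06, reversed to 0.0067 with median-of-ratios factors. It was -0.17 in cells of 5000 to 15000 UMIs, -0.0321 without cell cycle UMIs, -0.0476 without melanocytic UMIs, -0.0461 in clusters of the same class, -0.10 at 3 opposed UMIs, -0.0438 with no opposed UMI and -0.0821 without ribosomal genes. Members lower, 4, became 23 (5000 to 15000 UMIs), 7 (thinned, Leiden classes, 3 opposed UMIs), 2 (median-of-ratios) and 9 (unfiltered). Cox6a1 in NK-gated cells reversed from 0.12 to -0.0470 in cells of 5000 to 15000 UMIs.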

Other observations

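Cells outside the compared classes held the extremes of these genes. A cluster of 188 cells led by the pigment genes Pmel, Dct and Tyrp1, with Ptprc (CD45) at 32.0 CPM against 902 CPM in all other kept cells, held 43534 CPM of the 93 genes against 18549 CPM. The median ratio over 90 members was 2.18. Ndufa4 stood at 2036 against 311 CPM, Cox7a1 at 42.2 against 5.77 CPM and Cox7a2l at 309 against 290 CPM. The sort was for CD45+ cells.

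A cluster of 27 cells (25 and 2) led by Rgs5, Col1a1, Col1a2, Col3a1 and Acta2, with Ptprc at 20.2 CPM, held 54.7% and 44.4% of the UMIs of Ndufa4l2, a relative of Ndufa4, in the 2 libraries. It had 787 CPM of Ndufa4l2 against 2.70 CPM in all other kept cells, and 449 CPM of Cox4i2 against 4.02 CPM. Cox4i1 stood at 1236 against 880 CPM there, so both forms were present. The cluster was left unnamed. The members were not among the genes used for clustering.

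Neutrophil-gated cells held 0.70% in both libraries, from 113 and 25 cells, below each compared class. Mature dendritic cell-gated cells (44 and 38) held 1.56% and 2.87%, with per-cell medians of 1.53% and 1.38%, so the direction differs between sum and median; their melanocytic RNA was 80.1 and 4710 CPM.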
